A study of Mus musculus with 6 samples.

Results

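The genes described here make cholesterol, control its synthesis, and move it into, within and out of liver cells. The list held 30 genes: 19 enzymes of cholesterol synthesis in pathway order, 4 regulators, and 7 genes of uptake, export and intracellular handling. Its members were chosen by gene symbol. A gene was counted as measured where a probe set (the probes that report on one transcript) named that gene alone, which held for 27 of the 30, out of 22180 genes measured in all. Acat2, an enzyme at the entry of the pathway, and Soat2, which esterifies cholesterol, were not analysed here, and the probe set of the isomerase Idi1 also named another gene. The 27 were 17 enzymes, 4 regulators and 6 genes of uptake, export and trafficking.

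The livers came from male C57BL/6 mice, with 1 Affymetrix expression array per mouse. There were 3 livers expressing Sonic Hedgehog (SHH), a secreted signal that acts on neighbouring cells through the Hedgehog pathway, from mice 26, 28 and 31, and 3 control livers expressing green fluorescent protein (GFP), from mice 6, 13 and 21. Both groups share the method of gene transfer, hydrodynamic transfection, in which a fast injection of DNA in a large volume drives it into hepatocytes. The labels state no age, no promoter, no share of transfected cells, and no batch, day or litter. Values are log2 signals, and wherever the livers are listed without numbers they run in the order 26, 28 and 31 for SHH and 6, 13 and 21 for GFP.

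Hepatocytes build cholesterol from acetyl-CoA through mevalonate, isoprenoid pyrophosphates, squalene and lanosterol. When sterols in the endoplasmic reticulum run low, the escort protein SCAP carries the transcription factor SREBP2 to the Golgi, where it is cut and released to switch on nearly every enzyme of the route. When sterols are plentiful, INSIG proteins hold SCAP back, and oxysterols activate the receptor LXR, which raises the exporters ABCA1, ABCG5 and ABCG8.

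The Shh probe set read 4.57, 4.28 and 4.63 in SHH livers, against 3.86, 3.43 and 3.67 in GFP livers. Every SHH liver lay above every GFP liver, as for 5.26% of all genes, with a difference of 0.84 (limma, adjusted p = 0.356 over all genes). The Shh signals were dim, and those of the GFP livers and of SHH 28 lay below the array medians of 4.32 to 4.40. Limma called 0 genes at an adjusted p under 0.05 over all genes, a background of 0.0%, and at an unadjusted p under 0.05 738 genes were higher and 889 lower in SHH livers. Array correlations ran from 0.976 to 0.979 among SHH livers, from 0.975 to 0.980 among GFP livers and from 0.971 to 0.981 between the groups. All 8 hepatocyte markers, albumin and Hnf4a among them, were bright (9.17 to 13.7), with summed linear signals of 50503 to 53633 in SHH livers and 51504 to 51624 in GFP livers.

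Markers of other cell types were set beside the cholesterol genes, and none of them passed at an adjusted p under 0.05. Of all 22180 genes, 9723 had a higher mean in SHH livers and 56.2% a lower one. Means were higher in SHH livers for 10 of 10 macrophage, 7 of 7 neutrophil, 6 of 6 T and natural killer cell, 5 of 5 B and plasma cell and 6 of 6 stellate cell markers, for 1 of 4 cholangiocyte markers and for 0 of 5 endothelial markers. Summed linear signals were 1321 to 2605 in SHH livers against 902 to 1552 in GFP livers for macrophages, 96.9 to 229.3 in SHH livers against 71.4 to 90.1 in GFP livers for neutrophils, and 125.4 to 232.8 in SHH livers against 100.3 to 111.6 in GFP livers for T and natural killer cells. Sums were 285.1 to 573.7 in SHH livers against 164.4 to 213.8 in GFP livers for B and plasma cells, 500.3 to 560.4 in SHH livers against 448.6 to 473.5 in GFP livers for stellate cells, 472.6 to 809.8 in SHH livers against 647.5 to 896.7 in GFP livers for endothelium, and 103.5 to 110.2 in SHH livers against 99.5 to 122.5 in GFP livers for cholangiocytes. The sums did not overlap between the groups for neutrophils, T and natural killer cells, B and plasma cells and stellate cells. They overlapped for endothelium, cholangiocytes and macrophages, where GFP 6 (1552) lay above SHH 26 and SHH 28. Such sums weigh the brightest markers most. Taken instead as the median marker signal relative to the GFP mean of each gene, B and plasma cells also overlapped. That median was -0.04 in SHH 26, against 0.08 in GFP 6 and 0.10 in GFP 21. The medians did not overlap for neutrophils, T and natural killer cells and stellate cells. For stellate cells the gap ran from 0.03 in GFP 21 to 0.06 in SHH 31. No marker lay below the lower quartile of signals on all 6 arrays, a rule that misses a marker dim in 1 group only. The lowest signals were 2.255 for neutrophils, 3.10 for B and plasma cells, 3.26 for T and natural killer cells and 3.33 for cholangiocytes. Array lower quartiles were 3.13 to 3.22, and these lowest signals lay under the array medians of 4.32 to 4.40. The sums and medians of these lists therefore include dim signals. All 11 acute phase genes had higher means in SHH livers, with sums of 23651 to 56268 in SHH livers and 18796 to 21193 in GFP livers. In whole liver, fewer cells of a type and less RNA per cell cannot be told apart, and the part these cells and the acute phase response had in the results below was not tested.

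Cholesterol synthesis enzymes had lower mean signals in SHH livers nearly throughout the pathway, by small amounts. Of 17 enzymes, 16 (94.1%) had a lower mean in SHH livers, where 56.2% of all genes did, and their median difference was -0.26 against -0.03 over all genes. Among the 11090 genes above the median level, where all 17 enzymes lay, the share with a lower SHH mean was 54.7%. The exception was Sqle. No enzyme passed at an adjusted p under 0.05, and 2 of 17 (11.8%), Msmo1 and Nsdhl, were lower at an unadjusted p under 0.05, where 4.01% of all genes were. Without SHH 31 that count was 0 of 17 (4.22% of all genes) and the median difference was -0.14. Without GFP 6 the count was also 0 (3.31% of all genes). Without SHH 28 the count was 7 (3.44% of all genes), and without SHH 26 it was 4 (4.0% of all genes).

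**Figure D1:**
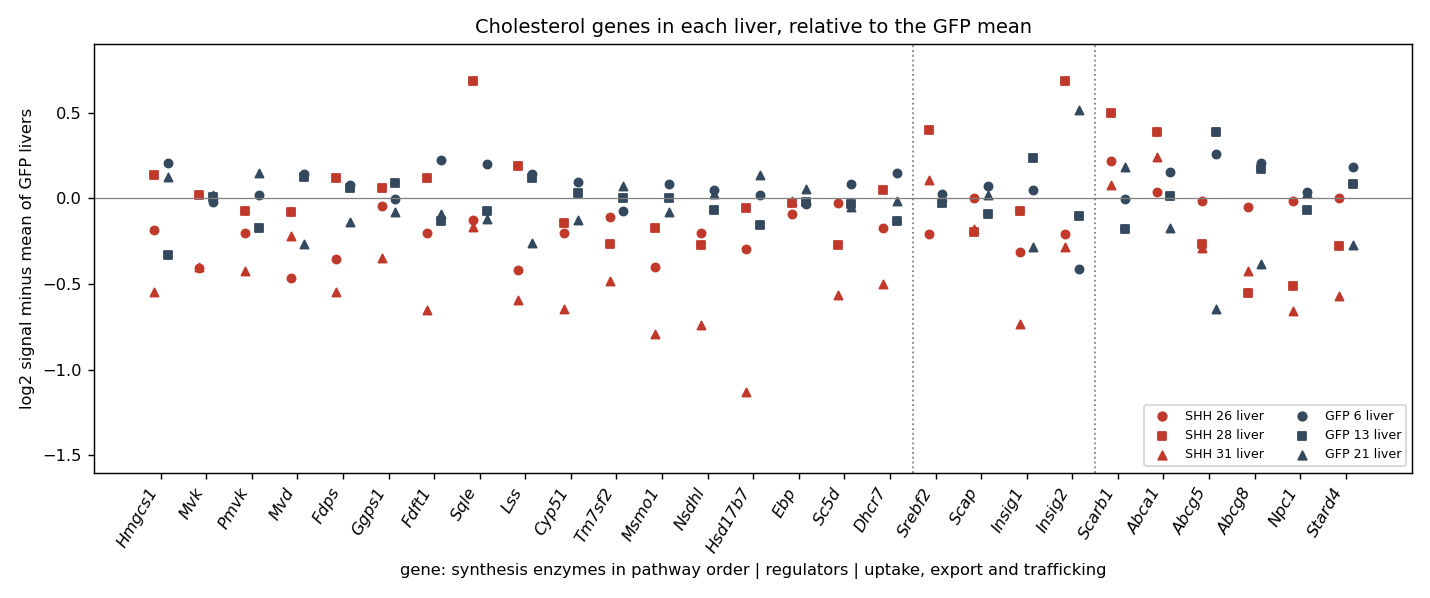
Log2 signal of each measured cholesterol gene in each liver, minus the mean of the 3 GFP livers for that gene (vertical axis), with the genes in pathway order along the horizontal axis, SHH livers in red and GFP livers in dark blue. The SHH 31 triangles lie lowest for 14 of the 17 enzymes, down to Hsd17b7 at 7.27 against a GFP mean of 8.40, while the SHH 28 squares lie near the GFP livers for many enzymes.

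The first enzymes of the route make and activate mevalonate. Hmgcs1, the cytosolic synthase that makes the precursor of mevalonate, read 10.54, 10.87 and 10.18 in SHH livers, against 10.94, 10.40 and 10.85 in GFP livers. SHH 28 reached the GFP values and GFP 13 lay below 2 of the SHH livers, so the groups overlapped. Mvk, mevalonate kinase, read 5.74, 6.16 and 5.75 in SHH livers, against 6.12, 6.15 and 6.16 in GFP livers. The GFP livers lay close together for Mvk (SD 0.02), with SHH 26 and SHH 31 well below them and SHH 28 level with GFP 21.

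Pmvk, which adds the next phosphate, read 7.97, 8.10 and 7.75 in SHH livers, against 8.19, 8.003 and 8.32 in GFP livers. Mvd, the decarboxylase that yields the isoprenoid unit, read 6.13, 6.52 and 6.38 in SHH livers, against 6.74, 6.72 and 6.33 in GFP livers. GFP 13 for Pmvk and GFP 21 for Mvd lay among the SHH livers. Fdps, which joins isoprenoid units into farnesyl pyrophosphate, read 8.80, 9.28 and 8.61 in SHH livers, against 9.23, 9.22 and 9.02 in GFP livers, and the highest of the 6 was SHH 28. Ggps1 makes the longer isoprenoid used to anchor proteins in membranes and stands on a side branch; its signals were 6.76, 6.86 and 6.46 in SHH livers, against 6.80, 6.89 and 6.73 in GFP livers. Its difference of -0.11 was the smallest of these 6 enzymes, whose differences ran down to -0.26 with a median of -0.24.

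The next enzymes carry the route through squalene to lanosterol. Fdft1, squalene synthase, read 9.46, 9.79 and 9.02 in SHH livers, against 9.89, 9.53 and 9.58 in GFP livers. Sqle, the epoxidase that is a rate-limiting step of the pathway, read 8.53, 9.34 and 8.49 in SHH livers, against 8.86, 8.58 and 8.53 in GFP livers. SHH 28 held the highest Sqle signal of the 6 livers and the other SHH livers held the lowest 2. The Sqle difference of 0.13 (95% interval -0.39 to 0.65) became -0.15 without SHH 28. Lss, which folds squalene epoxide into lanosterol, read 6.72, 7.32 and 6.54 in SHH livers, against 7.28, 7.26 and 6.87 in GFP livers, and SHH 28 was again the highest.

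At the 4 steps right after lanosterol the groups did not overlap, in some cases by a narrow gap. For Cyp51, Tm7sf2, Msmo1 and Nsdhl, which are neighbours in the pathway order, every SHH liver lay below every GFP liver. These 4 were 23.5% of the 17 enzymes, and 7.25% of all genes (7.56% of those above the median level) were lower without overlap. Cyp51, the lanosterol demethylase, read 9.47, 9.53 and 9.02 in SHH livers, against 9.76, 9.70 and 9.54 in GFP livers. The gap between the groups was narrow, from SHH 28 at 9.53 to GFP 21 at 9.54. Tm7sf2, the sterol reductase that follows, read 8.43, 8.28 and 8.06 in SHH livers, against 8.47, 8.55 and 8.62 in GFP livers, and here SHH 26 was nearest to the controls.

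Msmo1, the oxidase that attacks the methyl groups of the sterol ring, read 9.30, 9.53 and 8.91 in SHH livers, against 9.79, 9.70 and 9.62 in GFP livers. It averaged 9.25 ± 0.31 in SHH livers and 9.70 ± 0.08 in GFP livers (SD, n = 3 each), a difference of -0.45 (95% interval -0.83 to -0.07; limma, adjusted p = 0.622), or 1.37-fold lower (folds are 2 to the power of the log2 difference). Nsdhl, the dehydrogenase that works with Msmo1 in removing those groups, read 9.40, 9.33 and 8.86 in SHH livers, against 9.65, 9.53 and 9.62 in GFP livers. The Nsdhl difference was -0.40 (95% interval -0.77 to -0.04; limma, adjusted p = 0.657). In both genes all 3 SHH livers were low and SHH 31 was the lowest. Without SHH 31 the differences were -0.29 for Msmo1 and -0.24 for Nsdhl.

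Hsd17b7, the ketoreductase that completes the demethylation, had the largest difference of the enzymes, -0.49 (95% interval -1.07 to 0.08). Its signals were 8.11, 8.35 and 7.27 in SHH livers, against 8.42, 8.25 and 8.54 in GFP livers. SHH 31 alone lay far below the others, SHH 28 lay above GFP 13, and without SHH 31 the difference was -0.18. The last enzymes were Ebp, Sc5d and Dhcr7. Ebp, the sterol isomerase, had the smallest difference of the 17 enzymes (-0.04), with 9.52, 9.59 and 9.60 in SHH livers against 9.58, 9.60 and 9.67 in GFP livers and an interval of -0.30 to 0.21. Sc5d, a desaturase, read 11.47, 11.22 and 10.93 in SHH livers, against 11.58, 11.46 and 11.45 in GFP livers. Dhcr7, the final reductase of this branch, read 9.11, 9.33 and 8.78 in SHH livers, against 9.43, 9.15 and 9.27 in GFP livers. Over the 8 enzymes after lanosterol the median difference was -0.31, and all 8 had lower SHH means; whether this differs from the earlier steps was not tested.

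**Figure D2:**
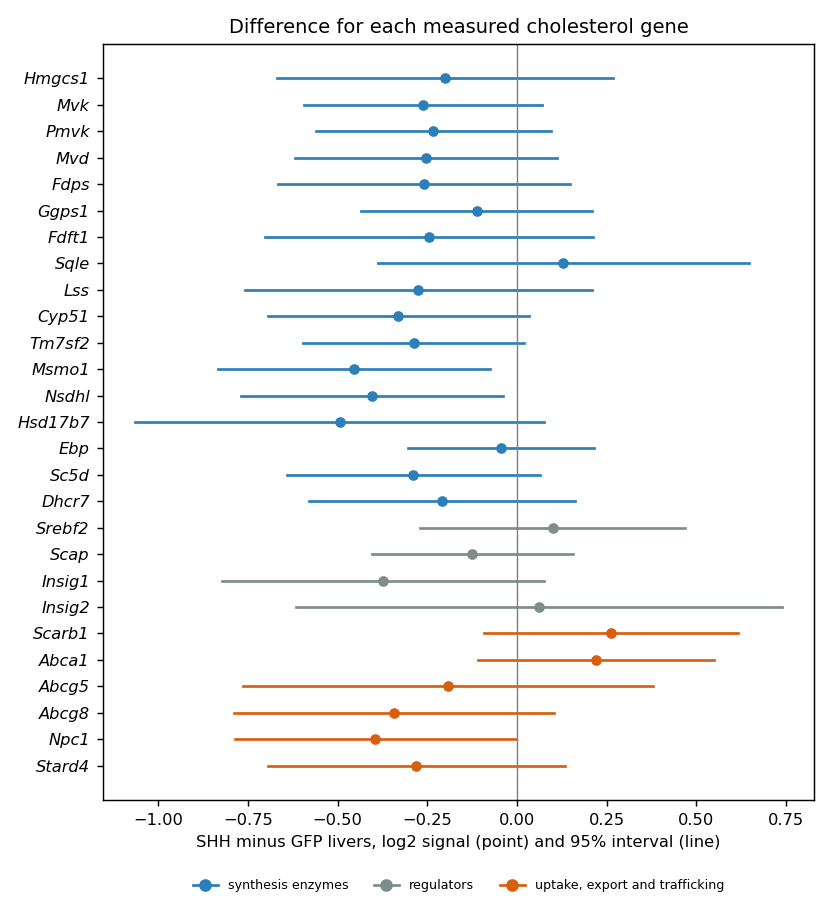
SHH minus GFP difference in log2 signal (horizontal axis) for each measured gene (vertical axis, pathway order from the top), with points for the estimate and lines for the 95% interval from limma. The intervals of Msmo1, Nsdhl and Npc1 lie wholly below 0, and those of Sqle, Srebf2, Insig2, Scarb1 and Abca1 are centred above it.

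The promoters of the 4 enzymes whose groups did not overlap, and that of Hmgcs1, are shown because they hold letters that most enzymes of the route share. SREBP2 binds sterol regulatory elements and acts with the neighbouring factors NF-Y, which binds CCAAT, and Sp1, which binds GGGCGG. Each line gives the 250 bases before the start of the RefSeq transcript in build GRCm38.p6, 5′ to 3′ on the strand of the gene, with the CCAAT box, the GGGCGG box and the sterol element TCACNCCAC on either strand in capitals. They are chr5:4104698-4104947 on the minus strand for Cyp51, chr19:6067851-6068100 (minus) for Tm7sf2, chr8:64733579-64733828 (minus) for Msmo1, chrX:72918271-72918520 (plus) for Nsdhl and chr13:119690101-119690350 (plus) for Hmgcs1.
Cyp51: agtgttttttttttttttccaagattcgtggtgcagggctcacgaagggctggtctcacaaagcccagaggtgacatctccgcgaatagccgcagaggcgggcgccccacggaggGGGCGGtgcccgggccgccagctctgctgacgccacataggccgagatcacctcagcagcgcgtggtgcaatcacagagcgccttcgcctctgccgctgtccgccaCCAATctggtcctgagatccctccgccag
Tm7sf2: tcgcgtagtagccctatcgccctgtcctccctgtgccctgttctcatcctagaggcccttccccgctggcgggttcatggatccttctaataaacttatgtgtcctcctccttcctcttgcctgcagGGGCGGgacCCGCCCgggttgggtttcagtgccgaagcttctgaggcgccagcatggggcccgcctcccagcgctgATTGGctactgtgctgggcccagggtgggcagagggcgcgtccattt
Msmo1: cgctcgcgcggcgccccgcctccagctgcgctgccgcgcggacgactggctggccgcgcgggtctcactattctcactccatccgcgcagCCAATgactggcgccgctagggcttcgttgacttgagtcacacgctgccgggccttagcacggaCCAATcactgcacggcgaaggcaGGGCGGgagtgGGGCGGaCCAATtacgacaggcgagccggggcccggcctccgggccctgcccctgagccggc
Nsdhl: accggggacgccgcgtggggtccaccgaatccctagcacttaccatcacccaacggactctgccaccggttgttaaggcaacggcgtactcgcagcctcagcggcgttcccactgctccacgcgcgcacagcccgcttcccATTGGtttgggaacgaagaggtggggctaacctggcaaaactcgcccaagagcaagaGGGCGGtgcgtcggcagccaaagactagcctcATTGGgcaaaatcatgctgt
Hmgcs1: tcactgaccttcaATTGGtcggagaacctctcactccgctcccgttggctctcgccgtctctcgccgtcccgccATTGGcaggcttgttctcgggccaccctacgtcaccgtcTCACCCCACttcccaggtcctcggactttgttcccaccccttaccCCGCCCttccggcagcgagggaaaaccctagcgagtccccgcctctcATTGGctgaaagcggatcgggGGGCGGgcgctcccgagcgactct
Msmo1 carried 3 CCAAT and 2 GGGCGG, and Hmgcs1 carried the same numbers with TCACCCCAC between them.

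RefSeq windows of 300 bases (250 before and 50 after the start) were matched for 23 of the 30 genes, 30 windows in all. CCAAT was found on either strand in 66.7% of these windows and in 37.4% of the 32851 windows of all genes, and GGGCGG in 73.3% and 35.7%. By gene, counting a match in any window of the gene, CCAAT was found for 15 of 16 enzymes, all but Acat2, and GGGCGG for 14 of 16. These 16 enzymes are not the measured ones: they include Acat2 and Idi1 and lack Fdps, Fdft1 and Sqle. Scarb1, Soat2, Npc1 and Stard4 had no window either. No share by gene was taken over all genes, so these counts cannot be set against the shares of windows. The E-box CANNTG, which can overlap CCAAT, was found in 86.7% of the windows and in 72.3% of all windows. The classical sterol regulatory element, searched letter by letter on both strands, was in 0 of the 30 windows and in 0.0913% of all, and the shorter TCACNCCAC with its free base was in 1 window, that of Hmgcs1, and in 1.24% of all. The DR4 repeat bound by LXR was in 0 of the 30 windows and in 0.0152% of all. These matches describe letters and do not show binding, and letters not found do not show that a binding site is absent.

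The SHH livers were not alike. SHH 31 was the lowest of the 6 livers for 14 of 17 enzymes (82.4%), where it was so for 22.2% of all genes. Within the SHH group the order SHH 31 below SHH 26 below SHH 28 held for 11 of 17 enzymes (64.7%) and for 19.2% of all genes, an order picked after the values were seen. SHH 31 lay below all 3 GFP livers for 15 enzymes (88.2%, against 31.6% of all genes), SHH 26 for 14 (82.4%, against 28.8%) and SHH 28 for 5 (29.4%, against 29.2%). The median enzyme signal, relative to the GFP mean of each gene, was -0.20, -0.03 and -0.55 in SHH livers, against 0.08, -0.02 and -0.05 in GFP livers. The SD of SHH livers exceeded that of GFP livers for 15 of 17 enzymes (88.2%), and for 55.8% of all genes. SHH 28, the SHH liver nearest to the controls, had the highest acute phase sum (56268), and SHH 31, the lowest, the highest macrophage sum (2605); the part of either was not tested.

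**Figure D3:**
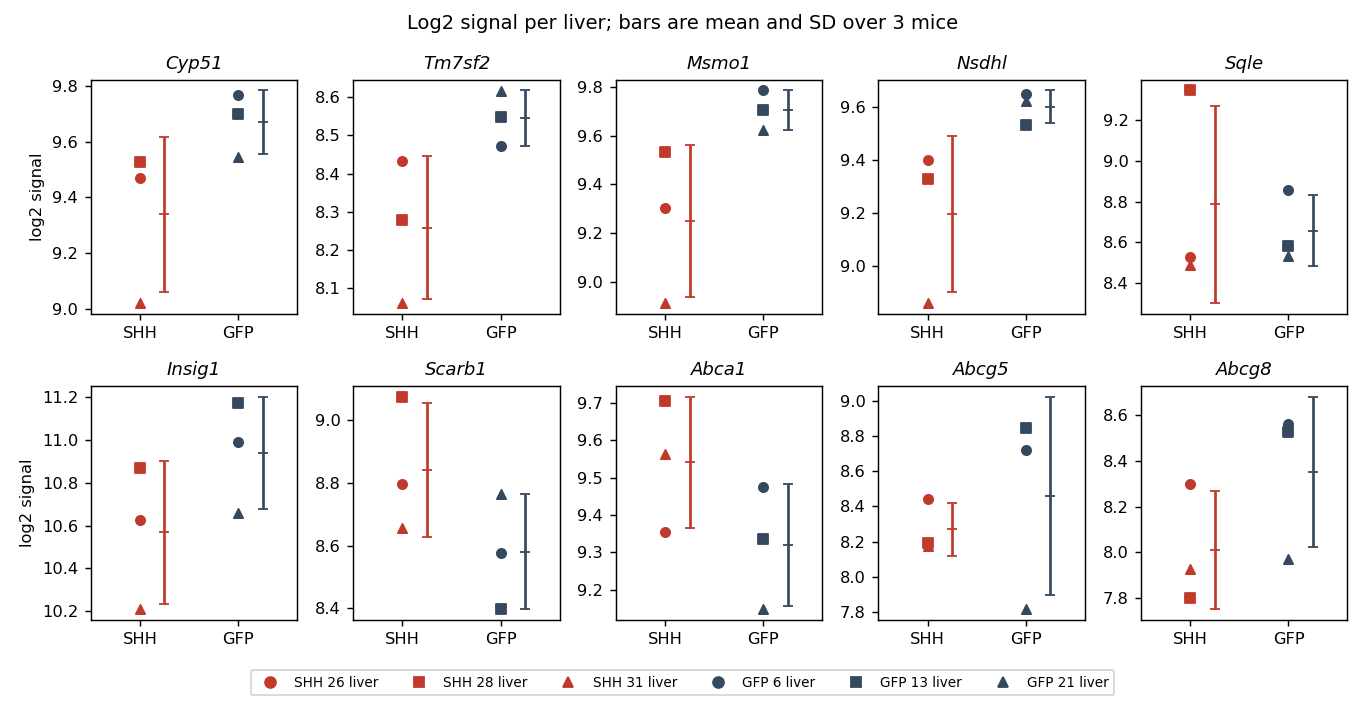
Log2 signal (vertical axis, scaled separately for each gene and not starting at 0) in the SHH livers (red, left) and GFP livers (dark blue, right) for 10 cholesterol genes, with bars for the mean and SD of 3 mice. Cyp51, Tm7sf2, Msmo1 and Nsdhl show no overlap, Sqle shows SHH 28 alone above the rest, and Abcg5 and Abcg8 show GFP 21 low among the controls.

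The regulators did not shift together. Srebf2, which encodes SREBP2, read 7.06, 7.67 and 7.38 in SHH livers, against 7.30, 7.24 and 7.28 in GFP livers. The GFP livers were nearly level (SD 0.03), while SHH 26 lay below them all and SHH 28 and SHH 31 above them, and the mean difference was 0.10 (95% interval -0.27 to 0.47). Scap read 8.32, 8.13 and 8.15 in SHH livers, against 8.39, 8.23 and 8.34 in GFP livers, a difference of -0.12. Insig1, which restrains SCAP and is itself a target of SREBP2, read 10.63, 10.87 and 10.21 in SHH livers, against 10.99, 11.18 and 10.66 in GFP livers. Its difference was -0.37 (95% interval -0.82 to 0.08; limma, adjusted p = 0.746), and SHH 28 lay above GFP 21, so the groups overlapped. Without SHH 31 the Insig1 difference was -0.19. Its SHH livers stood in the order most common among the enzymes, SHH 31 below SHH 26 below SHH 28.

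Insig2, the paralog of Insig1, known in mouse liver for a transcript of its own, spread widely in both groups. It read 8.53, 9.42 and 8.45 in SHH livers, against 8.32, 8.64 and 9.25 in GFP livers, with SDs of 0.54 in SHH livers and 0.47 in GFP livers. The difference of 0.06 had an interval of -0.62 to 0.74, and it became -0.25 without SHH 28 and -0.15 without GFP 6. The highest Insig2 and Sqle signals both belonged to SHH 28. Of the 4 regulators 2 had lower and 2 higher SHH means, where 56.2% of all genes had lower ones, with a median difference of -0.03. None of the 4 passed at an unadjusted p under 0.05, where 4.01% of all genes were lower and 3.33% higher.

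Uptake and export genes divided by gene. Scarb1, the receptor that takes cholesterol up from HDL, read 8.80, 9.08 and 8.66 in SHH livers, against 8.58, 8.40 and 8.77 in GFP livers. It averaged 8.84 ± 0.21 in SHH livers and 8.58 ± 0.18 in GFP livers (SD, n = 3 each), a difference of 0.26 (95% interval -0.09 to 0.62; limma, adjusted p = 0.783). GFP 21 lay above SHH 31, so the groups overlapped, and the difference was 0.14 without SHH 28 and 0.17 without GFP 13. Abca1, which loads cholesterol onto apolipoprotein A-I to form HDL, read 9.36, 9.70 and 9.56 in SHH livers, against 9.47, 9.34 and 9.15 in GFP livers. SHH 28 and SHH 31 lay above every GFP liver and SHH 26 did not, and the difference was 0.22 (95% interval -0.11 to 0.55; limma, adjusted p = 0.798).

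The partners ABCG5 and ABCG8, which form the pump that secretes cholesterol into bile, had lower SHH means. Abcg5 read 8.44, 8.19 and 8.17 in SHH livers, against 8.72, 8.85 and 7.81 in GFP livers. Abcg8 read 8.30, 7.80 and 7.93 in SHH livers, against 8.56, 8.53 and 7.97 in GFP livers. For both genes GFP 6 and GFP 13 lay above all SHH livers and GFP 21 did not: it was the lowest of the 6 for Abcg5 and lay between SHH 31 and SHH 26 for Abcg8. The differences were -0.19 (95% interval -0.76 to 0.38) for Abcg5 and -0.34 (95% interval -0.79 to 0.10) for Abcg8, and both moved with the control liver left out. Without GFP 21 they were -0.52 for Abcg5 and -0.53 for Abcg8, and without GFP 13 they were 0.00 for Abcg5 and -0.26 for Abcg8. In both genes SHH 26 was the highest of the SHH livers.

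The genes start head to head, and their promoter windows share 209 bases. The 109 bases between the starts, chr17:84683012-84683120 in GRCm38.p6, are shown on the plus strand, which is that of Abcg8. This single stretch precedes Abcg5 and this start of Abcg8, whose other RefSeq window lies apart, at chr17:84676052-84676351. None of the letters searched lies wholly inside the stretch, so no capitals appear. A CCAAT lies directly before it, at -114 to -110 from this Abcg8 start, and was counted for both genes.
Abcg5-Abcg8: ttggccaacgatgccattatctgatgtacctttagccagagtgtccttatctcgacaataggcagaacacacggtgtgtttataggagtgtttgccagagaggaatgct

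Npc1 and Stard4 handle cholesterol inside the cell. Npc1, the membrane protein that exports cholesterol from lysosomes, read 9.12, 8.63 and 8.48 in SHH livers, against 9.18, 9.07 and 9.17 in GFP livers. SHH 28 and SHH 31 lay well below all GFP livers and SHH 26 lay above GFP 13. It averaged 8.75 ± 0.34 in SHH livers and 9.14 ± 0.06 in GFP livers (SD, n = 3 each), a difference of -0.40 (95% interval -0.79 to -0.003; limma, adjusted p = 0.677), or 1.32-fold lower. It was the 1 of these 6 genes (16.7%) lower at an unadjusted p under 0.05, where 4.01% of all genes were, and a count of 1 says little about the 6. Stard4, a sterol carrier protein of the cytosol and an SREBP2 target, read 8.39, 8.11 and 7.82 in SHH livers, against 8.57, 8.48 and 8.12 in GFP livers. Its difference of -0.28 (95% interval -0.69 to 0.13) lay within the range of the enzymes, and GFP 21 stood below SHH 26. Without SHH 31 the Stard4 difference was -0.14, and without SHH 26 it was -0.42.

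The contrast between synthesis and the 6 genes of uptake, export and trafficking was close to 0. Their median difference was -0.24 against -0.26 for the 17 enzymes, a difference of -0.02 (enzymes minus the 6 genes). Without SHH 26 it was 0.13 and without SHH 28 -0.17, so the sign depends on the liver left out. By count, 4 of the 6 genes (66.7%) had lower SHH means, against 16 of 17 enzymes. None of the 6 had groups that did not overlap, against 7.25% of all genes lower and 5.26% higher without overlap. The median of the 6 genes was -0.01, -0.27 and -0.36 in SHH livers, against 0.17, 0.05 and -0.22 in GFP livers. SHH 28, near the controls for the enzymes, was below all 3 GFP livers in this median, and it was below GFP 6 and GFP 13 for Abcg5, Abcg8, Npc1 and Stard4.

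**Figure D4:**
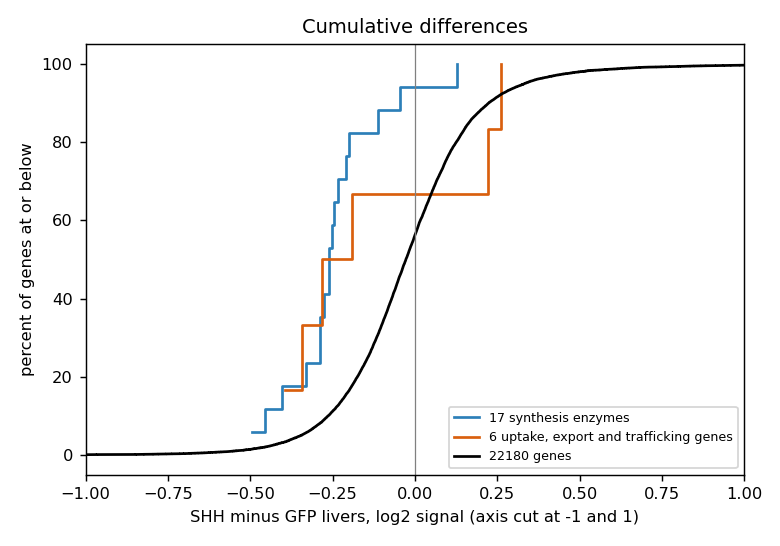
Percent of genes (vertical axis) at or below each SHH minus GFP difference in log2 signal (horizontal axis) for the 17 synthesis enzymes (blue), the 6 genes of uptake, export and trafficking (orange) and all 22180 genes (black). The enzyme curve climbs to 94.1% by 0, where that of all genes reaches 56.2% and that of the 6 genes 66.7%.

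**Figure D5:**
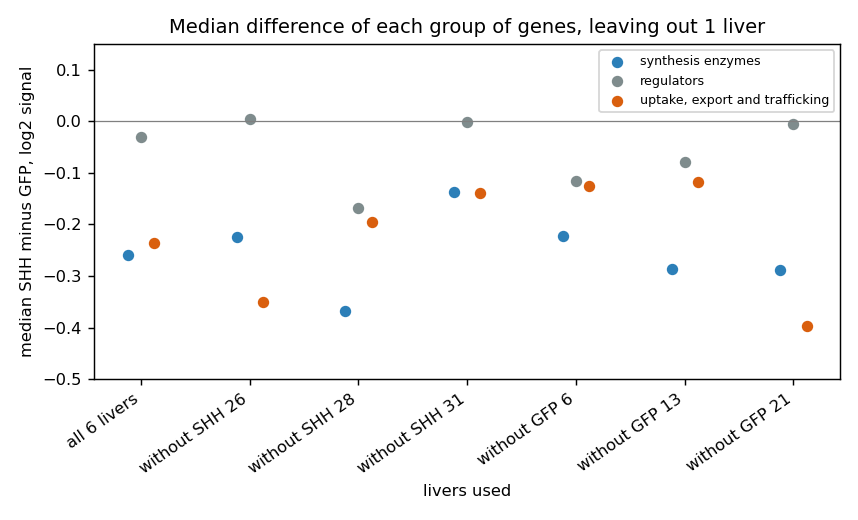
Median SHH minus GFP difference in log2 signal (vertical axis) of the synthesis enzymes, the regulators and the genes of uptake, export and trafficking, with all 6 livers and with each liver left out in turn (horizontal axis). The enzyme median stays between -0.37 and -0.14, and which of the enzyme and transport medians is lower depends on the liver left out.

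Further genes of cholesterol handling were split evenly. Of 22 measured out of 30 listed, 11 had lower and 11 higher SHH means, with a median difference of 0.00, and 0 passed at an adjusted p under 0.05. The 2 that were lower at an unadjusted p under 0.05 (9.09%, against 4.01% of all genes) were Rdh11 and Tmem97, both known as SREBP targets. Rdh11, a retinol dehydrogenase, read 7.99, 7.71 and 7.41 in SHH livers, against 8.48, 8.10 and 8.20 in GFP livers. Tmem97, a sterol-responsive membrane protein that binds NPC1, read 8.38, 8.42 and 8.29 in SHH livers, against 8.63, 8.74 and 8.59 in GFP livers. In both genes every SHH liver was below every GFP liver, which again is 2 of 22 (9.09%), against 7.25% of all genes.

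The genes with the next smallest p were Stard5, a lipid carrier of the same family as Stard4 (-0.32), the exporter Abcg1 (0.35), Npc2, the soluble lysosomal partner of NPC1 (0.30), and Gramd1b, which moves cholesterol from the plasma membrane to the endoplasmic reticulum (-0.24). Npc2 read 7.87, 8.28 and 8.40 in SHH livers, against 7.91, 7.91 and 7.83 in GFP livers, with SHH 28 and SHH 31 above the controls while Npc1 was low in the same livers. Nr1h3, which encodes LXR alpha, differed by -0.12 and its lipogenic target Srebf1 by 0.03. Srebf1 read 7.60, 7.46 and 8.14 in SHH livers, against 8.05, 8.27 and 6.80 in GFP livers. Srebf1 was lowest in GFP 21, as Abcg5 was.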

How the data were processed

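RNA from 6 whole mouse livers was measured, 3 expressing SHH and 3 expressing GFP, on 1 Affymetrix array each. The deposited values are log2 signals, made by the authors with RMA per the submitters' processing notes; its version is not given in the sources used here. RMA corrects background, equalises array distributions and summarises probes, so values are relative and low signals understate change. The table held 41345 probe sets, of which 23521 named 1 gene in the platform annotation. Per gene the probe set with the highest mean was used, giving 22180 genes. Array medians were 4.32 to 4.40.

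The groups were tested against each other in limma 3.58.1 under R 4.3.3 (linear model with eBayes, two-sided, no covariate, no filter), with Benjamini-Hochberg adjustment over all genes. Intervals are 95% intervals of that fit. An exact permutation test of 3 against 3 cannot go below p = 0.1, so none was used, and the number of arrays limits precision. Gene groups are described by counts and medians. The labels give separate mouse numbers, not shared between groups, so nothing was paired. All members are named; per-mouse values of other cholesterol genes go to those with the smallest p. The members and lists were chosen with earlier results of these data known. The fit was tested on simulated data. Alternatives were other probe set choices, a level filter, 2 normalizations, 2 priors, array weights, a threshold of 0.1, a looser sterol motif and each mouse left out.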

Additional observations from a re-analysis of the deposited data

How the results depend on the processing

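The 16 enzymes with lower SHH means stayed 16 under both normalizations and array weights, and ran from 15 to 17 when 1 liver was left out. The other probe set choices could not move an enzyme, because no measured enzyme had a second named probe set. Enzymes without overlap between the groups were not recounted under the normalizations or with a liver left out. The enzyme median of -0.26 was -0.24 under both normalizations and array weights, and ran from -0.37 to -0.14 with 1 left out. With 1 left out, the median of uptake, export and trafficking ran from -0.40 to -0.12 and that of the regulators from -0.17 to 0.01. The difference between enzymes and transport genes then ran from -0.17 to 0.13. The count of genes called over all genes was 0 except without SHH 26, where it was 46 (30 higher, 16 lower) and included no cholesterol gene of the list (leave-one-out range 0 to 46). The count of 2 enzymes lower at an unadjusted p under 0.05 was added after seeing the data. It was 1 with equal array medians (3.05% of all genes) and 4 with a trended prior (4.06% of all genes). With 1 liver left out it was 0 to 7, where 2.85% to 4.22% of all genes were lower. Equal array medians moved the share of all genes with lower SHH means to 51.0% and a second quantile normalization to 51.4%. The sterol motif with a free base was found for 1 gene. No measured gene of the list passed under any setting run. Single genes turned direction on leaving out SHH 28 (Sqle, Srebf2, Insig2), SHH 31 (Ggps1), GFP 6 (Insig2, at -0.145) and GFP 13 (Abcg5); the cause was not tested. With 1 liver left out, Ggps1 ran from -0.196 to 0.0065, Sqle from -0.150 to 0.279, Srebf2 from -0.0505 to 0.254, Insig2 from -0.248 to 0.319 and Abcg5 from -0.515 to 0.0017. No paired analysis was possible because the groups share no mouse number.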

Other observations

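Some probe sets outside the rule also report on these genes. The probe set shared by Idi1, the isopentenyl isomerase, and a predicted gene read 9.52, 9.35 and 8.71 in SHH livers (26, 28 and 31), against 9.31, 9.05 and 9.26 in GFP livers (6, 13 and 21), a difference of -0.01 in which SHH 31 was lowest and SHH 26 highest. The second probe sets of Npc1 and Scap were dim. For Npc1 it averaged 4.40 in SHH livers and 4.55 in GFP livers, a difference of -0.16 where the brighter one gave -0.40, and SHH 28 was its highest liver rather than a low one. For Scap it averaged 3.86 in SHH livers and 4.11 in GFP livers, a difference of -0.25 where the brighter one gave -0.12.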
